A study of Mus musculus with 21 samples.

Results

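The genes described here are 8 cadherins (Cdh1, Cdh2, Cdh3, Cdh5, Cdh6, Cdh11, Cdh13 and Cdh17) and 2 catenins (Ctnna1 and Ctnnd1). They were chosen by name, as 10 of the 34478 genes in the deposited table. The samples were primary mouse cell lines from pancreatic ductal adenocarcinoma, measured by RNA sequencing. All groups shared 1 genotype, whose alleles include Ptf1a wt/Cre and Trp53 loxP/loxP, so that Cre from the Ptf1a locus removed Trp53 in the pancreatic lineage. The 6 lines (#3, #4, #6, #7, #9 and #10) came from separate mice and grew in DMEM with serum. Each was sequenced once as untreated parental cells and once as resistant cells kept in trametinib, a MEK inhibitor, at 100 times the line's own IC50. Each was sequenced again after drug withdrawal for 12 passages (P12), and lines #3, #7 and #9 also after 5 passages (P5), which made 21 samples in 4 states. For the P5 samples of lines #7 and #9 the titles give 5 drug-free passages and the descriptions give 12, and the titles were followed. The study describes the resistant populations as expansions of single clones, so a resistant sample may stand for 1 clone of its line. Line and state were never replicated, and each value below comes from 1 library.

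Classical cadherins span the membrane and bind the same cadherin on the neighbouring cell in a calcium-dependent way, while their tails hold beta-catenin and delta-catenin 1 (Ctnnd1), and alpha-catenin 1 (Ctnna1) ties the complex to actin. Pancreatic duct cells and well differentiated ductal tumours carry Cdh1, E-cadherin, and loss of Cdh1 with gain of Cdh2, N-cadherin, is a usual description of epithelial to mesenchymal transition. Not all the listed genes are classical cadherins: Cdh13 is held by a lipid anchor and lacks a cytoplasmic tail, Cdh17 has a short tail that does not bind beta-catenin, and the catenins are cytoplasmic.

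Values are the authors' normalized counts. Low values in the table stepped in units close to those of single reads, and from this step the depth was estimated at 24.1 to 42.7 M reads per sample (median 34.9 M in parental, 32.0 M in resistant, 32.5 M in P5 and 32.1 M in P12). A value of 3 reads, taken as the floor below which no fold is given, stood at 2.31 to 4.07 normalized counts depending on the sample, and it covers counting error only. Differences between states are log2 differences of (value + 1) from 1 limma fit over the 4 states, and a gene was called at an adjusted p below 0.01 with a log2 difference beyond 1. All 10 genes passed the filter on low values (at least 10 normalized counts in at least 3 samples), as did 19300 genes in all. The fit has 1 sample per line and state, so its p-values measure the spread between lines. Without a block for cell line, each P5 difference sets the mean of 3 lines against the mean of 6.

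Of the 10 genes, 2 were called between resistant and parental cells, Cdh2 higher and Cdh13 lower, where 1023 of 19300 genes were called in all (5.30%; 2.57% higher and 2.73% lower). When the fit was blocked by cell line, which pairs the states of a line, 4 of the 10 were called, Cdh1 and Cdh17 being added, beside 10.5% of all genes. Between P12 and resistant cells 1 of 10 was called, Cdh2, which was lower in P12, beside 2.13% of all genes (1.28% higher and 0.850% lower) and, with the block, 1 of 10 beside 4.52%. By limma 0 of 10 were called between P12 and parental cells, where 0.114% of all genes were called and 0.523% with the block, and 2953 genes had an unadjusted p below 0.05. By limma 0 of 10 were called between P5 and resistant cells (0.378% of all genes, 0.611% with the block, 2976 genes at an unadjusted p below 0.05) and between P5 and parental cells (0.0259% with or without the block, 2003 genes at an unadjusted p below 0.05). Between P12 and P5 limma called 0 of 19300 genes, 0% with or without the block, and 130 genes had an unadjusted p below 0.05 (140 with the block). That is fewer genes than this cut would take with no change at all, so the p-values ran high here. The 0 calls therefore do not show that P5 and P12 cells were the same. The comparisons share samples and are not independent of each other.

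Cdh1, the cadherin of epithelial cells, was abundant in most parental cells. It stood at 27906, 36777, 26491, 53229, 816 and 32192 normalized counts in the parental cells of lines #3, #4, #6, #7, #9 and #10, in that order. In the resistant cells of the same lines it was 73.1, 4.01, 43.7, 16401, 8.68 and 2120.1. Line #7 had by far the highest resistant level, and the groups overlapped because parental line #9 lay below resistant lines #7 and #10. In bulk RNA, fewer cells that express a gene and less RNA of it per cell cannot be told apart, here and for every gene below. After 5 passages without drug Cdh1 was 2106 in line #3, 17116 in #7 and 46.2 in #9. After 12 passages it was 2808, 992, 1516, 18598, 44.0 and 14006 in the 6 lines. Each P12 sample lay between the parental and resistant samples of its own line, and in no line did it reach the parental level.

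Parental cells had 382 times the Cdh1 of resistant cells in line #3, 607 times in #6, 94.1 times in #9, 15.2 times in #10 and 3.25 times in #7. In line #4 the resistant value was under the floor and no fold is given. The log2 difference of resistant from parental cells was −7.11 (SE 1.92), lower in 6 of 6 lines, and it missed the threshold in the limma fit (adjusted p = 0.0173). Blocked by cell line its SE was 0.98, and limma called it (adjusted p = 0.000175, lower in 6 of 6 lines, by 7.11 on the log2 scale). The unblocked limma fit called Cdh1 when line #7 was left out (−8.19, adjusted p = 0.0061, lower in 5 of the remaining 5 lines) or when line #9 was left out (−7.25, adjusted p = 0.00792). Between P12 and resistant cells the log2 difference was 3.85 (SE 1.92), higher in 6 of 6 lines, and limma did not call it (adjusted p = 0.277, and 0.018 with the block). The P12 cells differed from the parental cells by −3.26 (SE 1.92), lower in 6 of 6 lines, which limma did not call either (adjusted p = 0.428).

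Cdh3, P-cadherin of basal epithelia, is the neighbour of Cdh1 on chromosome 8. In the GENCODE annotation of GRCm38 it spans chr8:106510891-106557297 on the plus strand and ends 46053 bases before Cdh1, which spans chr8:106603351-106670246 on the same strand. Parental cells held 416, 5699, 2234, 4214, 47.6 and 2746 normalized counts of Cdh3 in lines #3, #4, #6, #7, #9 and #10. Resistant cells held 20186, 6407, 924, 1289.8, 35.0 and 37.2. The groups overlapped over most of their range, and the lines went opposite ways: Cdh3 was 48.5 times higher in resistant than parental cells of line #3 and 73.9 times lower in those of line #10. At P5 the values were 4249.7, 463 and 12.8 in lines #3, #7 and #9, and at P12 they were 2287, 2393, 157, 407, 7.24 and 460.0. The log2 difference of resistant from parental cells was −0.64 (SE 1.78), with 2 lines higher and 4 lower, and limma did not call it (adjusted p = 0.852); without line #10 its sign turned (0.47). P12 was below resistant in 5 of 6 lines (log2 −1.22, SE 1.78, limma adjusted p = 0.776), line #10 being the exception. In resistant line #3 Cdh1 was at 73.1 normalized counts while Cdh3 was at its highest of any sample. Both neighbours were below their parental samples in resistant lines #6, #7, #9 and #10, while in lines #3 and #4 Cdh1 was lower and Cdh3 higher. Whether their shared place plays a part was not tested.

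Cdh17, liver-intestine cadherin, is known from intestinal epithelium. Its parental values were 18199, 3862, 15064, 15570.1, 126 and 16935 normalized counts in lines #3, #4, #6, #7, #9 and #10, and its resistant values were 26.7, 1.43, 1.26, 20.3, 1596 and 55.5. Line #9 ran against the others, with a low parental and a high resistant value, and the 5 other resistant samples were below every parental sample. At P5 it was 80.8 in line #3, 35464 in #7 and 708 in #9. The P12 values were 211, 91.7, 12.2, 38923, 524 and 4933, so that withdrawn lines #7 and #9 were above their parental samples and lines #3, #4 and #6 were far below theirs. Parental cells had 682 times the Cdh17 of resistant cells in line #3, 769 times in #7 and 305 times in #10, and in line #9 the resistant cells had 12.6 times the parental value. The log2 difference of resistant from parental cells was −7.80 (SE 1.96), lower in 5 of 6 lines, and limma did not call it (adjusted p = 0.0117). With the block limma called it (SE 1.76, adjusted p = 0.00513, lower in 5 of 6 lines), and without line #9 so did the unblocked fit (−10.09, adjusted p = 0.00269, lower in 5 of 5 lines). It was also called, at the same log2 difference and in the same 5 of 6 lines, with a filter on the mean (limma adjusted p = 0.00937) and with only the 2 states in the fit (0.0088). P12 exceeded resistant in 5 of 6 lines by a log2 difference of 4.40 (SE 1.96), which limma did not call (adjusted p = 0.214).

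Cdh2, N-cadherin of mesenchymal and neural cells, was expressed in all 21 samples. Parental cells held 4499, 6569.9, 6522, 3182, 3905 and 6165 normalized counts in lines #3, #4, #6, #7, #9 and #10. Resistant cells held 18543, 7322, 27119, 29631, 10012 and 21248. All 6 resistant samples were above all 6 parental samples, with line #4 nearest to the parental range. At P5 it was 9506, 5064 and 6022 in lines #3, #7 and #9, and at P12 it was 5211, 7948, 5715, 4372, 7709 and 5237. P12 samples stayed close to the parental range, and P12 of line #4 was above the resistant sample of that line.

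Cdh2 rose in resistant cells, by 4.12 times in line #3, 1.11 times in #4, 4.16 times in #6, 9.31 times in #7, 2.56 times in #9 and 3.45 times in #10. Its log2 difference was 1.77 (SE 0.31), higher in 6 of 6 lines, and limma called it (adjusted p = 0.000894). In P12 it fell from the resistant level (log2 −1.52, SE 0.31, lower in 5 of 6 lines, limma adjusted p = 0.00546), by 6.78 times in #7 and 1.30 times in #9 among the lines that were lower. This call was lost when line #3, #6, #7 or #10 was left out (limma adjusted p = 0.0388, 0.0345, 0.0286 and 0.0385, with log2 differences of −1.46, −1.37, −1.27 and −1.42), and also with only the 2 states in the fit (adjusted p = 0.0323). P12 and parental cells differed by 0.25 (SE 0.31), higher in 4 of 6 lines, which limma did not call (adjusted p = 0.727). P5 was below resistant in 3 of 3 lines. The main fit, which set P5 of these 3 lines against resistant cells of all 6, gave log2 −1.35 (SE 0.38, limma adjusted p = 0.0669). With the block the difference was −1.22 (SE 0.42, limma adjusted p = 0.148).

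Cdh6, K-cadherin of kidney and other developing epithelia, varied by line. Its parental values were 620.5, 6780.4, 6548, 1036, 223 and 1169.7 normalized counts in lines #3, #4, #6, #7, #9 and #10, and its resistant values were 10.3, 10.9, 604.5, 7669, 4.99 and 12329. The resistant samples of lines #7 and #10 were the highest of all, and those of the other 4 lines were below their parental samples. At P5 Cdh6 was 10.8, 220.1 and 9.57 in lines #3, #7 and #9, and at P12 it was 48.3, 2.43, 33.8, 175, 4.82 and 729. Every P12 sample was below its own parental sample, and the value of line #4 was under the floor. Resistant cells had 10.5 times the parental Cdh6 in line #10 and 7.41 times in #7, while parental cells had 624 times the resistant level in #4, 60.3 times in #3, 44.7 times in #9 and 10.8 times in #6. Resistant cells differed from parental ones by log2 −2.89 (SE 1.85), lower in 4 of 6 lines, and limma did not call it (adjusted p = 0.321). For P12 against parental cells it was −5.11 (SE 1.85), lower in 6 of 6 lines and not called by limma (adjusted p = 0.196, and 0.0413 with the block).

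Cdh11, osteoblast cadherin, known from mesenchyme and fibroblasts, was near the floor in parental cells: 1.00, 3.37, 6.69, 0, 3.77 and 1.63 normalized counts in lines #3, #4, #6, #7, #9 and #10. In resistant cells it was 38.2, 61.0, 729, 1.01, 1.24 and 1.602, so lines #3, #4 and #6 had it and lines #7, #9 and #10 were at or under the floor. The P5 values were 224, 0 and 2.02 in lines #3, #7 and #9, and the P12 values were 585, 39.7, 1344, 0, 0 and 0.83. The same 3 lines, #3, #4 and #6, held Cdh11 after withdrawal, and in lines #3 and #6 its P12 value was 15.3 and 1.84 times the resistant value. Resistant cells differed from parental ones by log2 2.43 (SE 1.91), higher in 4 of 6 lines, and limma did not call it (adjusted p = 0.432). In lines #7 (higher), #9 and #10 (both lower) the 2 values behind that direction were under the floor.

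Cdh13, the cadherin with a lipid anchor, was in every parental sample, at 2216, 1644, 2797, 1086, 1701 and 649.9 normalized counts in lines #3, #4, #6, #7, #9 and #10. In resistant cells it was 2.69, 0, 4.52, 20.1, 15.3 and 82.6. The groups did not overlap, and the highest resistant sample, line #10, belonged to the line with the lowest parental value. After 5 passages without drug it was 61.2, 459 and 97.8 in lines #3, #7 and #9, and after 12 passages 514, 2.64, 84.5, 565, 444 and 177. Line #4 was the only P12 sample under the floor. Cdh13 fell in resistant cells, with a log2 change of −7.37 (SE 1.11), lower in 6 of 6 lines, called by limma (adjusted p = 0.000275). Parental cells had 619 times the resistant level in line #6, 111 times in #9, 53.9 times in #7 and 7.87 times in #10, with no fold for lines #3 and #4, whose resistant values were under the floor. P12 was above resistant in 6 of 6 lines (log2 3.92, SE 1.11), which limma did not call (adjusted p = 0.0389), but it was called when line #4 was left out (4.34, adjusted p = 0.00876, higher in 5 of 5 lines). It was still below parental in 6 of 6 lines (log2 −3.45, SE 1.11, limma adjusted p = 0.143).

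Cdh5, VE-cadherin of endothelium, was at or under the floor in 4 of 6 parental and 6 of 6 resistant samples. Its highest values were 114 normalized counts in P5 of line #7, 93.0 in P12 of line #7, 65.9 in parental line #6, 31.8 in P12 of line #10 and 16.4 in parental line #10. In resistant cells it was listed at 0 except in line #10 (1.61). The other P5 and P12 values ran from 0 to 3.89. None of its differences was called, the one of P12 from resistant cells being 2.70 (SE 1.20, higher in 5 of 6 lines, limma adjusted p = 0.214). In lines #4 and #9 both values behind that direction were under the floor.

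The catenins varied less than the cadherins. Ctnna1, alpha-catenin 1, stood at 23391, 19969, 19962, 23085, 14206 and 33914 normalized counts in parental lines #3, #4, #6, #7, #9 and #10, and at 27055, 16922, 17873, 18693, 19644 and 21812 in resistant ones. It was 10846, 17331 and 17506 at P5 of lines #3, #7 and #9, and 11994, 15188, 15436, 16253, 17788 and 22725 at P12. The 4 states overlapped, and line #3 had the lowest values after withdrawal. The log2 difference of resistant from parental cells was −0.11 (SE 0.19), lower in 4 of 6 lines, and limma did not call it (adjusted p = 0.752). Ctnnd1, which binds the membrane-near part of the tail, was 16098, 18238, 17572, 29753, 14469 and 17868 in parental cells and 9311, 14353, 9428, 6304, 7279 and 13602 in resistant ones. All resistant samples were below all parental samples. P5 values were 14945, 8498 and 13498, and P12 values were 16992, 20616, 19248, 7919.8, 12321 and 14996 in the same order of lines. The log2 difference of Ctnnd1 between resistant and parental cells was −0.94 (SE 0.25), lower in 6 of 6 lines, which limma did not call (adjusted p = 0.0157); with the block the adjusted p was 0.00857, but the difference was short of log2 1. P12 was above resistant in 6 of 6 lines by 0.61 (SE 0.25, limma adjusted p = 0.171).

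**Figure D1:**
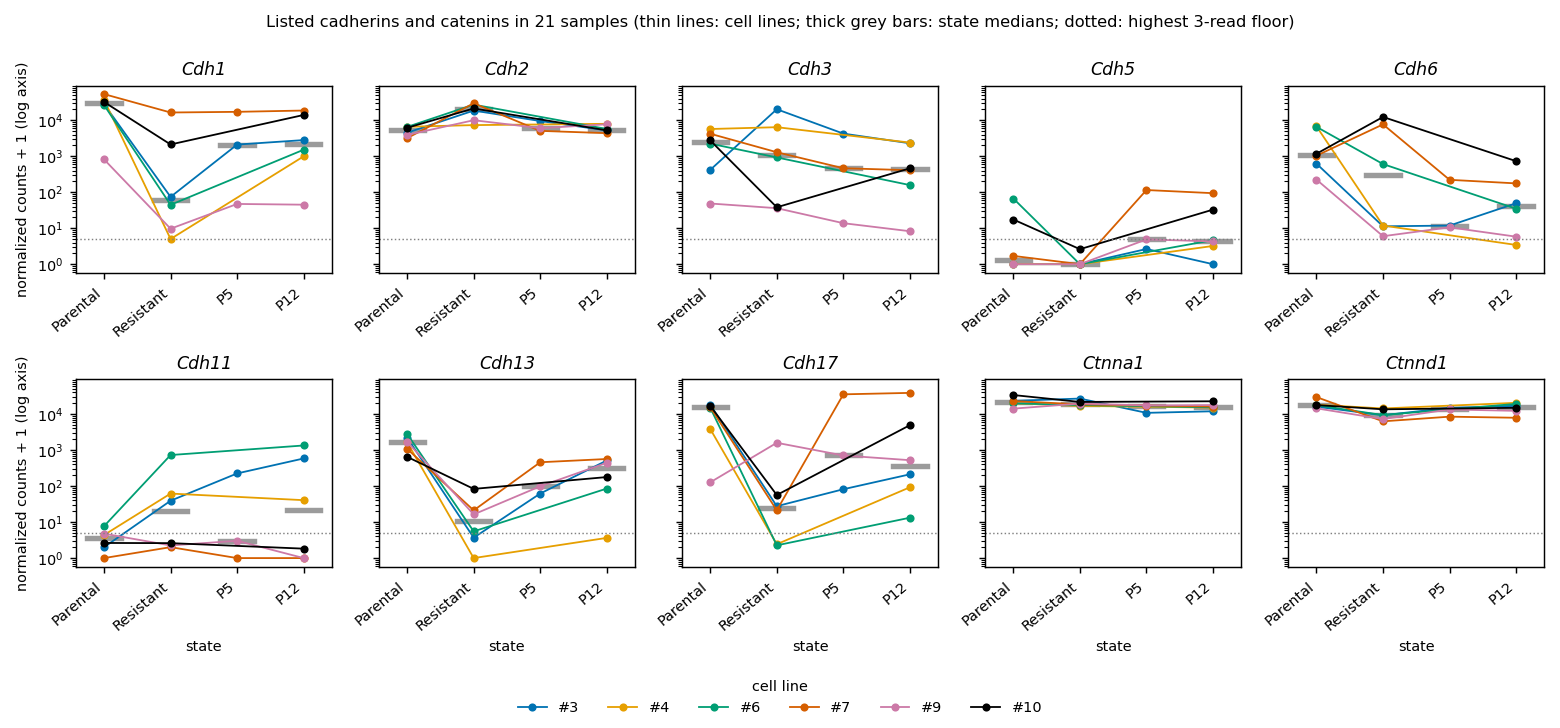
Normalized counts of the 10 genes in parental, resistant, P5 and P12 samples, on a log scale of (value + 1), with 1 point per sample and lines joining the samples of a cell line. Cdh1, Cdh13 and Cdh17 were lower in the resistant samples of most lines, Cdh2 was higher, and Ctnna1 kept within 10846 to 33914 normalized counts.

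Levels of different genes were compared per kilobase of the longest protein-coding GENCODE transcript, and the share of each cadherin in the summed level of the 8 cadherins was taken per sample. This takes the deposited values to hold no correction for gene length, which is not known, and every share, sum and ratio here rests on it. In parental cells Cdh1 made up a median of 49.1% of the 8 (12.2 to 64.8%), Cdh17 28.0% (2.41 to 39.7%) and Cdh2 9.33% (3.54 to 53.2%). In resistant cells the median share of Cdh2 was 61.8% (45.2 to 92.9%) and that of Cdh1 0.179% (0.0303 to 33.5%), while Cdh17 held 0.0719% (0.00604 to 18.1%, the highest in line #9). Cdh1 was the most abundant cadherin per kilobase in 5 parental samples, and Cdh2 in line #9. Cdh2 led 5 resistant samples, and Cdh3 led line #3 with 54.4% and reached 48.9% in line #4, just under Cdh2. In P12 Cdh2 led 4 samples, Cdh1 line #10 (53.4%) and Cdh17 line #7 (67.6%), and in P5 Cdh2 led 2 samples and Cdh17 line #7 (66.4%). Shares move with one another by construction, so a share says nothing of a gene's own level.

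The summed level of the 8 cadherins per kilobase had a median of 13543 normalized counts per kilobase in parental, 6224 in resistant, 3489 in P5 and 2492 in P12 samples. The P5 median rests on lines #3, #7 and #9 only. In these lines the sums were 3489, 15435 and 1490 at P5 and 2538, 16631 and 1873 at P12. The ranges overlapped, from 1515 to 18545 in parental and 1827 to 16631 in P12 samples. Parental line #9, at 1515, had the lowest sum of its state. The log2 ratio of Cdh1 to Cdh2 per kilobase was positive in 5 of 6 parental samples (median 2.56, from −2.13 in line #9 to 4.19 in line #7) and negative in all 6 resistant ones (median −8.50, −10.70 to −0.72). At P12 it was positive in lines #7 (2.22) and #10 (1.55) and negative in the other 4 (median of 6, −1.27).

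**Figure D2:**
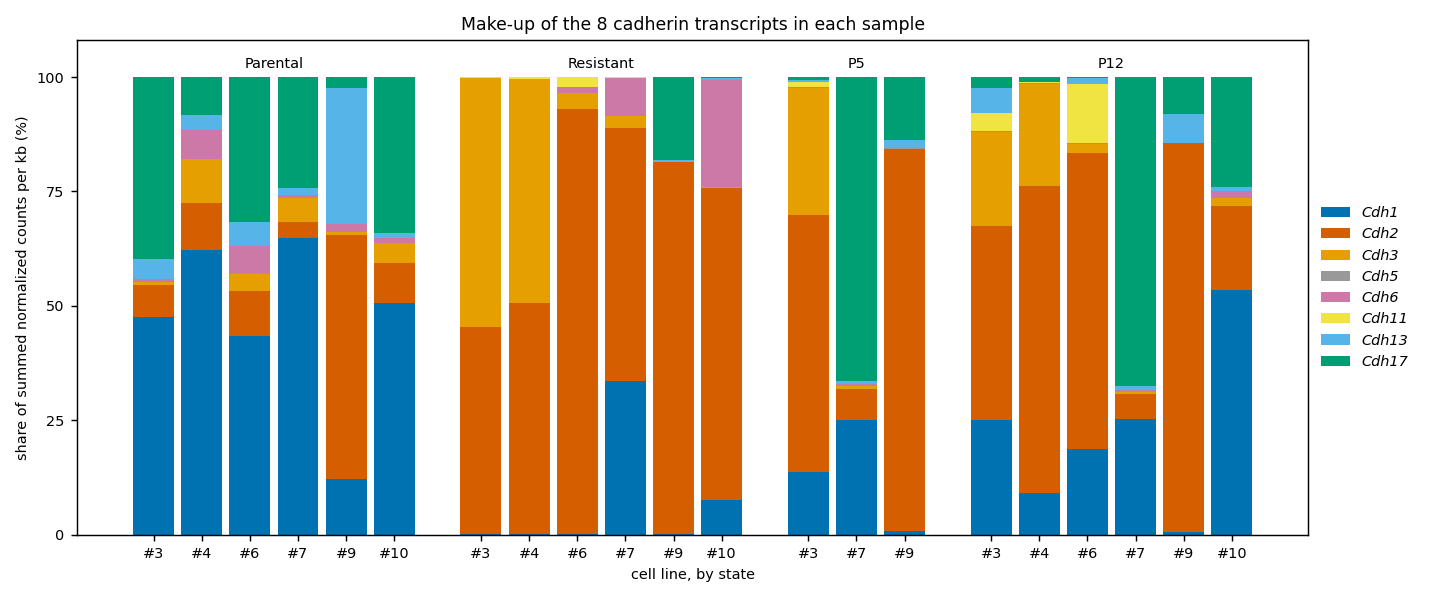
Share of each of the 8 cadherins in their summed level per kilobase, in percent, as 1 stacked bar from 0 for each of the 21 samples grouped by state. Cdh1 held 12.2 to 64.8% in parental samples, and Cdh2 held 45.2 to 92.9% in resistant samples.

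Other genes of the family were counted in lists. Of 33 other cadherins and cadherin-related genes, 22 were tested and 3 were called between resistant and parental cells, 2 higher and 1 lower, with a median log2 difference of −0.40 beside −0.005 over all tested genes. Of all 19300 genes 5.30% were called in this comparison, and 10.5% with the block, and the list counts stand beside these shares. Fat4, a very large atypical cadherin, ran from 2.01 to 318 (median 12.3) in parental and from 155 to 12155 (median 2620.5) in resistant cells, and it rose in 6 of 6 lines (log2 6.77, SE 1.31, limma adjusted p = 0.00203). Dchs2, of the Dachsous family that binds Fat cadherins, ran from 0 to 7.92 in parental and from 93.6 to 536 in resistant cells and rose in 6 of 6 lines (log2 6.41, SE 0.69, limma adjusted p = 1.24e-05). Cdhr5, a cadherin of the brush border, ran from 2.86 to 768 in parental cells and was at most 1.28 in resistant ones (log2 −6.67, SE 1.42, lower in 6 of 6 lines, limma adjusted p = 0.00391). The Fat4 call was lost when line #3 or #6 was left out and the Cdhr5 call when line #3, #4, #6 or #10 was, while Dchs2 was called in every setting that tested it (the filter on a mean of 100 removed it). With the block 5 were called, Cdhr2 and Fat1 being added, both lower, and without line #9 the unblocked fit also called 5. Of 12 non-clustered protocadherins, 9 were tested and 1 was called (median 2.40). That gene was Pcdh1, which is known from epithelia. It fell from 609.8 to 5052 in parental to 6.99 to 539 in resistant cells (log2 −7.06, SE 0.90, lower in 6 of 6 lines, limma adjusted p = 7.01e-05). The most abundant tested protocadherins other than Pcdh1 were Pcdh7 and Pcdh19. They differed by 0.96 (SE 0.44) and 4.46 (SE 1.54), each higher in 5 of 6 lines, and limma called neither (adjusted p = 0.15 and 0.0543). With the block Pcdh10 and Pcdh19 were called as well, which made 3. The genes added by the block in this list and the others were named after their values were seen.

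Of 36 partners of the adherens junction, 34 were tested and 1 was called between resistant and parental cells (median −0.33). This count and those below stand beside 5.30% of all genes, and 10.5% with the block. Ctnnb1, beta-catenin, which links the cadherin tail to alpha-catenin, was 30665 to 56878 in parental and 12675 to 30371 in resistant cells, and it fell in 6 of 6 lines (log2 −1.08, SE 0.24, limma adjusted p = 0.00513). The call was lost without line #3, #4, #6, #9 or #10. The most abundant other partners, the actinins Actn4 and Actn1, were each lower in 5 of 6 lines (log2 −0.40, SE 0.19, and −0.59, SE 0.29) and were not called by limma (adjusted p = 0.179 and 0.174). With the block 5 were called, namely Ctnna2, Arvcf and Shroom3 higher and Magi1 and Ctnnb1 lower. Of 26 genes of cadherin processing and turnover, all tested, 3 were called, all lower (median −0.22). They were Mgat5, a glycosyltransferase that branches N-glycans (log2 −2.70, SE 0.44, lower in 6 of 6 lines, limma adjusted p = 0.000506), the propeptide convertase Furin (log2 −1.64, SE 0.39, lower in 5 of 6 lines, adjusted p = 0.00899) and the sheddase Adam9 (log2 −1.50, SE 0.33, lower in 6 of 6 lines, adjusted p = 0.00499). Mgat5 was called in every setting, but Adam9 was lost without line #4 or #6, and Furin without line #3, #4, #6 or #10, without a filter, without a trend and with only the 2 states in the fit. With the block 5 were called, 1 higher and 4 lower, Fyn (higher) and Arf6 (lower) being added.

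Among 14 repressors of Cdh1 transcription 13 were tested, and limma called 0 between resistant and parental cells (median 0.26). The counts of repressors and activators stand beside 5.30% of all genes, and 10.5% with the block. The most abundant, Tcf3, was 3962 to 6278 in parental and 2817 to 8367 in resistant cells (log2 −0.31, SE 0.23, lower in 5 of 6 lines, limma adjusted p = 0.393). Prrx1 was 6.20 to 7078 in parental and 66.0 to 6664 in resistant cells (log2 3.94, SE 1.91, higher in 5 of 6 lines, limma adjusted p = 0.177). With the block 1 was called, Snai3, which was lower, and 1 was also called without line #7, with a pseudocount of 8 and with only the 2 states in the fit. Without line #9, or at an adjusted p below 0.05, 2 were called. Outside the naming rule, Zeb1, Zeb2, Snai1 and Snai2 were chosen after their values were seen. Zeb1 and Zeb2, both known to bind the Cdh1 promoter, had medians of 1671 and 236 in parental and 1465 and 959 in resistant cells. Zeb1 was lower in resistant cells in 5 of 6 lines and Zeb2 higher in 5 of 6. Snai1 and Snai2 were each higher in 5 of 6 lines, and the main limma fit called none of these genes. Of 15 activators of epithelial transcription 13 were tested and 2 were called, both lower (median −1.88). Cdx2, an intestinal homeobox factor, was 669.6 to 2086 in parental cells and 0 to 40.7 in resistant cells (log2 −8.99, SE 0.85, lower in 6 of 6 lines, limma adjusted p = 3.12e-06). Klf5 was 2749 to 5574 in parental and 18.8 to 2011 in resistant cells (log2 −3.77, SE 0.82, lower in 6 of 6 lines, limma adjusted p = 0.00477). Cdx2 was called in every setting, but Klf5 was lost when any line other than #7 was left out and with only the 2 states in the fit. With the block 4 were called, Elf3 and Esrp2 being added. The median of the 10 listed members was −1.27.

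Between P12 and resistant cells each list but the repressors had 1 gene called, beside 2.13% of all genes (4.52% with the block). Dchs2 was lower in P12 in 6 of 6 lines (log2 −3.78, SE 0.69, limma adjusted p = 0.00284), and Pcdh1, Dlg5, Mgat5 and Cdx2 were higher, each in 6 of 6 lines. Their log2 differences were 5.69 (SE 0.90) for Pcdh1, 1.32 (SE 0.29) for Dlg5, 2.02 (SE 0.44) for Mgat5 and 6.11 (SE 0.85) for Cdx2, with limma adjusted p = 0.00097, 0.00844, 0.00852 and 0.00031. Of these calls only that of Cdx2 held in every setting: Dlg5 was lost whichever line was left out and Mgat5 when any line other than #9 was, both also without a filter, without a trend and with only the 2 states in the fit, Dchs2 was lost without line #4, #7 or #10, and Pcdh1 was lost without line #4 or #10 and with only the 2 states in the fit. The medians of the lists were −0.61 for the other cadherins, −0.75 for protocadherins, −0.37 for junction partners, −0.23 for processing, 0.48 for repressors and 0.14 for activators, beside 0.022 over all genes. With the block the repressors had 1 gene called here, the junction partners 4 and processing 2. For P12 against parental cells limma called 0 genes in each list, with or without the block, beside 0.114% of all genes (0.523% with the block). For P5 against resistant cells it called only Cdx2, which was lost when any line other than #7 was left out, without a filter, with a pseudocount of 8 and with only the 2 states in the fit, and with the block 1 protocadherin as well. Of all genes 0.378% were called there, and 0.611% with the block.

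The markers of cell types were read over whole lists, and their part in the differences above was not tested. All 8 ductal or epithelial markers were in the table. Their summed level had a median of 221788 normalized counts in parental (17632 in line #9), 62661 in resistant (1812 in line #9), 22210 in P5 and 51592 in P12 samples. All P5 medians of marker sums rest on lines #3, #7 and #9 only, so they are not matched to the other medians. In these lines the epithelial sums were 22210, 224420 and 3389 at P5 and 33652, 193766 and 4024 at P12. Krt8, Krt18 or Krt19 was the most abundant in most samples and Sox9 in resistant, P5 and P12 cells of line #9, and Epcam was listed at 0 in 20 of 21 samples. The 8 fibroblast markers summed to a median of 472 in parental, 89585 in resistant, 31911 in P5 and 26187 in P12 samples. Line #9 had the highest parental (10441) and resistant (503995) sums, and line #7 the lowest resistant one (1912). Col1a1, Col1a2 or Dcn was the most abundant, and Lum was at 0 in 14 samples.

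Of 8 endothelial markers 7 were in the table. Their median sums were 3619, 3544, 1765 and 784 in parental, resistant, P5 and P12 samples, led by Ptprb in most samples and by Tek or Esam in 4 resistant ones, while Emcn was at 0 in 18 samples and at most 4.13, and Tie1 was at most 11.8. In the P5 and P12 samples of line #7, where Cdh5 was highest, the endothelial sums were 2228 and 941. All 6 intestinal markers were in the table, with median sums of 3018 in parental, 55.8 in resistant, 1060 in P5 and 1392 in P12 samples. Vil1 or Cdx2 led the parental samples, and Cdx1 was at 0 in 14 samples and at most 16.3. In line #9, where Cdh17 was high in resistant cells, the intestinal sum there was 62.7. Leukocyte markers (5 of 6 in the table) had median sums of 199, 317, 278 and 208, led by Cd68, except in resistant line #10 (2892, led by Csf1r), with Ptprc between 3.02 and 20.01. The 6 acinar markers had median sums of 129, 80.4, 190 and 176, led by Cela1 in most samples, with Ptf1a at 0 in 20 samples and at most 1.03.

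The genes most like each member were found by Pearson's r of log2(value + 1) over 21 samples, which share lines and states, so r describes the samples and is no test. Most like Cdh1 were Pdx1 (r = 0.937), Hnf4a (0.924), Plut (0.919), Fermt1 (0.919) and Pllp (0.916). Most like Cdh2 were Sp8 (0.865), Stard13 (0.854), 2410131K14Rik (0.847), Sh3pxd2a (0.836) and Sh3bp5l (0.831). Cdh17 was closest to Tigit (0.943) and Cldn2 (0.940), Cdh13 to Omp (0.874) and Socs6 (0.873), Cdh3 to Cryl1 (0.851) and Gstt3 (0.823), and Cdh6 to Gm13420 (0.896) and Frmpd1 (0.878). For Cdh5 they were Slc17a6 (0.914) and Gm32051 (0.846) and for Cdh11 Gm28265 (0.901) and Gm37403 (0.885), the pair for Cdh11 having at most 20.9 normalized counts in any sample. Ctnna1 was closest to Hsd17b4 (0.771) and Ercc3 (0.758), and Ctnnd1 to Pank1 (0.831) and Slc3a1 (0.777).

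Places on GRCm38 are given for 6 more members. Cdh11 (chr8:102632095-102785642, minus strand), Cdh5 (chr8:104101625-104144511, plus) and Cdh13 (chr8:118283733-119324921, plus) share chromosome 8 with Cdh1 and Cdh3, Cdh17 spans chr4:11758147-11817895 on the plus strand, Cdh6 chr15:13028701-13173675 on the minus strand and Ctnnd1 chr2:84600071-84650765 on the minus strand. Promoter windows of 250 bases before the start were at hand for 2 members, Ctnnd1 (2 starts) and Cdh6, from RefSeq on GRCm38.p6. The motifs searched on both strands were CACCTG, bound by Snai and Zeb factors, CANNTG, any E-box, which includes CACCTG, and TGANTCA, the AP-1 site. Of 32851 windows of this length, 17.2% held CACCTG, 66.2% CANNTG and 6.75% TGANTCA. The windows are shown because they are the ones at hand for the members, and capitals mark CANNTG, found once in the first Ctnnd1 window (first base −200 from the start) and once in the Cdh6 window (−15). CACCTG and TGANTCA were not in these windows, which says only that these letters are not there.
Ctnnd1, chr2:84658978-84659227, minus strand: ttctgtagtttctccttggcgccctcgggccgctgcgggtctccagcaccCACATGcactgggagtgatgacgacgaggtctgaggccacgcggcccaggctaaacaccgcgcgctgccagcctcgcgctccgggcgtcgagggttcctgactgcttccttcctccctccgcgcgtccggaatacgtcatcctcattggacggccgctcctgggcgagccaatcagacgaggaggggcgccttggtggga
Ctnnd1, chr2:84650741-84650990, minus strand: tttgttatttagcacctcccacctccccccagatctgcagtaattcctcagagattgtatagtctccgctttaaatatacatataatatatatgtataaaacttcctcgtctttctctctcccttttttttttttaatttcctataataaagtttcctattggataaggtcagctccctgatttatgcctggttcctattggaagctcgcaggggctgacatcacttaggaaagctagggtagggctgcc
Cdh6, chr15:13173676-13173925, minus strand: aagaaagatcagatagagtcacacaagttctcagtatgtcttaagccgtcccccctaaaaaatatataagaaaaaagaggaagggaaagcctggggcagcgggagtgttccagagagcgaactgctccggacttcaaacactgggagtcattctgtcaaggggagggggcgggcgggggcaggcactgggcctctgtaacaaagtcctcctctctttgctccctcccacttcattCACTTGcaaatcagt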

How the data were processed

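Total RNA of 21 samples was sequenced from stranded mRNA libraries. Per the submitters' processing notes the authors used CASAVA 2.17 or bcl2fastq 2.19, Salmon 0.12 and DESeq2 1.18 with mm10. More than 1 sequencer model was used, the labels do not say for which samples, and so the model may differ between states. The signal deposited by the authors is a table of gene values normalized in DESeq2, with or without offsets for gene length, and no values were changed before the tests here. Low values were whole multiples of 1 step, within 0.05 of a step, in 52.4 to 70.9% of cases (67.7 to 94.6% for genes with 1 transcript), so whole reads were not recovered and no count test was run. Step and column total gave the depth.

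Genes with at least 10 normalized counts in at least 3 samples were tested on log2(value + 1), which understates the change of low genes, with limma 3.58.1 (R 4.3.3) using 1 fit of 4 states, a trend and Benjamini-Hochberg adjustment over 19300 genes. Other steps used Python 3.11.15, numpy 2.4.6, pandas 2.3.3 and matplotlib 3.10.9. Samples with the same line number come from the same line and were taken as pairs: the correlation of their deviations from the state means was 0.159 to 0.352 for resistant and parental cells and 0.337 to 0.520 for P12 and resistant cells. It was weaker in places for P12 and parental cells (0.00819 to 0.510) and for P5 and parental cells (−0.0601 to 0.465), and 0.495 to 0.537 for P5 and resistant and 0.732 to 0.806 for P12 and P5 cells. Tested on simulated data for resistant against parental cells over 19300 genes, the fit recovered 50.9% of 108 genes changed by log2 2 and 77.2% of 92 changed by log2 4. Alternatives were 2 other pseudocounts, no filter, a filter on the mean, upper-quartile scaling, the block, no trend, an adjusted p of 0.05, only the 2 states compared, and each line left out in turn.

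The members and lists were chosen with earlier results of these data known. All members are named. From each list up to 4 called genes with the largest difference between resistant and parental cells are named. Where fewer than 2 were called, the 2 most abundant of the other tested genes are named as well. The most like genes are the 5 with the highest r for Cdh1 and Cdh2 and 2 for each other member. Coordinates are from GENCODE release M21. Member proteins were not used here.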

Additional observations from a re-analysis of the deposited data

Results flagged for a closer look

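Each member was looked at in each state with 6 samples for 1 sample far from the others on the log2 scale, by Dixon's ratio of gap to range, and 5 of 30 groups had one. Chance marks about 1 in 20 groups if values are normal and groups independent, but these groups share lines. Cdh1 in parental line #9 was the lowest of its state, at 816 normalized counts. Cdh17 in parental line #9 was the lowest of its state too, at 126. Cdh13 in P12 of line #4 was lowest at 2.64, under the floor of 3 reads. Ctnnd1 in parental line #7 was highest, at 29753. Cdh5 in resistant line #10 was highest at 1.61, where the other 5 samples were at 0 and all 6 were under the floor.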

How the results depend on the processing

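Of the members' differences under 15 other settings, 854 kept direction and side of the threshold, 11 came to be called, 5 were no longer called and 24 reversed. With the cell line as a block the genes called were 2017 for resistant against parental, 872 for P12 against resistant, 101 for P12 against parental and 118 for P5 against resistant, and the block added Cdh1 and Cdh17 to make 4 members called between resistant and parental cells. It changed no other call of a member. At an adjusted p below 0.05 there were 2190, 947, 116 and 376 genes for the same comparisons and 9 for P5 against parental, with 4 members for resistant against parental and 2 for P12 against resistant. With only the 2 states in the fit, which leaves fewer samples, there were 93 genes and 0 members for P12 against resistant, 12 genes for P12 against parental, 14 for P5 against resistant, 1 for P5 against parental and 1 for P12 against P5. A filter on a mean of 100 gave 5 genes for P12 against parental and 3 for P5 against parental. Upper-quartile scaling moved the median of all genes from 0.02 to 0.11 for P12 against resistant and from 0.03 to 0.13 for P5 against resistant, and turned no member.

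With each line left out in turn, the genes called ran from 456 to 1239 for resistant against parental (members 2 to 4), 132 to 459 for P12 against resistant (members 0 to 2), 4 to 68 for P12 against parental, 23 to 48 for P5 against resistant and 1 to 5 for P5 against parental. Leaving out lines turned these log2 differences, none of them called: Cdh3 in resistant against parental (−1.88 to 0.47), Cdh11 in P12 against resistant (−0.48 to 0.53), Cdh11 in P5 against resistant (−3.01 to 0.18) and, in P5 against parental, Cdh5 (−0.19 to 2.53), Cdh11 (−0.95 to 2.76) and Cdh17 (−4.28 to 0.14). For P12 against P5 the ranges were −0.57 to 1.95 for Cdh1, −0.31 to 0.13 for Cdh2, −1.01 to 1.497 for Cdh3, −1.05 to 0.36 for Cdh5, −0.41 to 1.43 for Cdh6, −0.0543 to 2.52 for Cdh11, −0.995 to 1.03 for Cdh13 and −0.0116 to 0.24 for Ctnna1. The block turned Cdh11 in P5 against resistant (0.20) and, in P12 against P5, Cdh3 (−0.48), Cdh6 (−0.51) and Cdh13 (0.70), and a pseudocount of 8 turned Cdh13 in P12 against P5 (0.18). Without the block, P5 differences set the mean of 3 lines against the mean of 6, so they also hold differences between lines. Within the 3 lines with P5, Cdh13 in P12 against P5 was higher in 3 of 3 (mean log2 1.84, main fit −0.025). Cdh3 was lower there in 3 of 3 (−0.61, main fit 0.14). Cdh11 in P5 against resistant was higher in 2 of 3 (0.65, main fit −0.92). Cdh6 in P12 against P5 kept its sign (0.29, main fit 0.42), with 2 of 3 lines lower. The cause of the turns was not tested. Reads per sample limit values near the floor, most of all for Cdh5 and Cdh11.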
